A study of Mus musculus with 24 samples.

Results

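The samples were 12 libraries of mouse cortex labelled CL, 6 from animals without ciRS-7 (KO) and 6 from wild type animals (WT), out of 24 libraries in the series. They were chosen as the columns of the table that sets CL KO against CL WT, and all 14323 genes of that table were tested. All animals were males of 3 to 4 months in which a monofilament had closed the middle cerebral artery for 1 h, followed by 1 day of reperfusion, so KO and WT share the stroke and the surgery. The strain is given as C57BL/6N-Cdr1asem1Nikr for both genotypes, and the labels do not expand the letters CL or PI. Each of the 12 animals also gave a library labelled PI. RNA was total RNA with ribosomal RNA removed. No group without occlusion is among the samples analysed here, so the comparison is of 2 genotypes after the same injury.

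ciRS-7, also called Cdr1as, is a circular RNA made by back-splicing. It is abundant in neurons of the mammalian brain and carries many conserved sites for the microRNA miR-7. MicroRNAs pair through their seed, near the 5′ end, with matching sites in 3′ untranslated regions and lower the level of those messengers. A long noncoding RNA, Cyrano (listed as Oip5os1), directs the decay of miR-7, and Cdr1os is the long transcript from the locus that ciRS-7 comes from. Immediate early genes such as Fos, Egr1 and Arc are switched on within minutes by synaptic activity, without new protein synthesis. Glucocorticoid targets such as Fkbp5 follow the level of stress hormone acting on its nuclear receptor.

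Levels are deposited log2 CPM, read counts scaled to a common library total. In both groups and for 100% of genes, each end of the group held 2 tied values: outer values had been set to the quartiles of the 6, which left 4 of 6 recoverable. Group levels below are means of those 4 values, and SE is the standard error of a difference of such trimmed means. A gene is called at an adjusted p under 0.05 in a limma-moderated test on them (Benjamini-Hochberg over all genes). The steps between low values put the depth at 5.99 to 10.5 M reads a library, with a median of 7.56 M in KO and 7.22 M in WT. KO replicate 6 had the highest share of genes at an end of its group, 89.5%, against 53.1% to 71.0% for the other 11 libraries. Its gap did not pass the outlier test described at the end (0.599 of the range in KO, critical value 0.625). Results that the text leads with are therefore also given without it. Where values of single libraries are given below, those at the ends of a group are the deposited ones, which narrows each group and widens the gap between groups. In bulk tissue, fewer cells of a type and less RNA per cell cannot be told apart.

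Of the 14323 genes, 4 were called (0.0279%), 2 higher (0.014%) and 2 lower (0.014%) in KO, and 3 of them lie at the ciRS-7 locus. Without KO replicate 6, 5 were called: these 4 and the small nucleolar RNA ENSMUSG00000065629. In WT the level of Cdr1as had a second lowest value of 11.73, a median of 11.84 and a second highest value of 11.90 log2 CPM. In KO, 4 of 6 libraries were deposited at the lowest value of the table, 0.004 CPM, and the highest recoverable KO value was 0.148 CPM, worth at most 1.56 reads. Against a floor of 3 reads in the shallowest KO library (0.449 CPM), the group mean of Cdr1as was at least 8093-fold lower in KO. From the second lowest WT value the figure is 7540-fold. The highest KO value of Cdr1as cannot be recovered. Cdr1, listed separately, had a WT median of 5.14 log2 CPM. It was deposited at the lowest value in all 6 KO libraries, the highest of which cannot be recovered. Its group mean was at least 79.3-fold lower (72.8-fold from the second lowest WT value). As far as values can be recovered, Cdr1as was thus at or near 0 in the libraries labelled KO and abundant in those labelled WT, as the labels have it.

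Cdr1os went the other way. Its KO values had a second lowest of 8.46, a median of 8.57 and a second highest of 8.66 log2 CPM, against 6.74, 6.75 and 6.81 in WT, and the recoverable values of the groups lay far apart. It rose 3.48-fold, a log2 fold change of 1.80 (SE 0.06), with an adjusted p = 4.94e-09 by the limma-moderated test. In the annotation Cdr1os spans chromosome X from 61116378 to 61292484 on the forward strand (GRCm38, listed there as C230004F18Rik), and the single Cdr1 entry (X, 61184005 to 61185558, reverse strand) lies inside it. Whether the counting used strand is not given in the sources used here, so reads of these overlapping entries may not be told apart. Around the locus, 14 other genes were tested within 5 Mb on either side: 6 were higher and 8 lower in KO, with a median of -0.05, and 0 of the 14 had an unadjusted p under 0.05, against 5.73% of all genes.

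**Figure D1:**
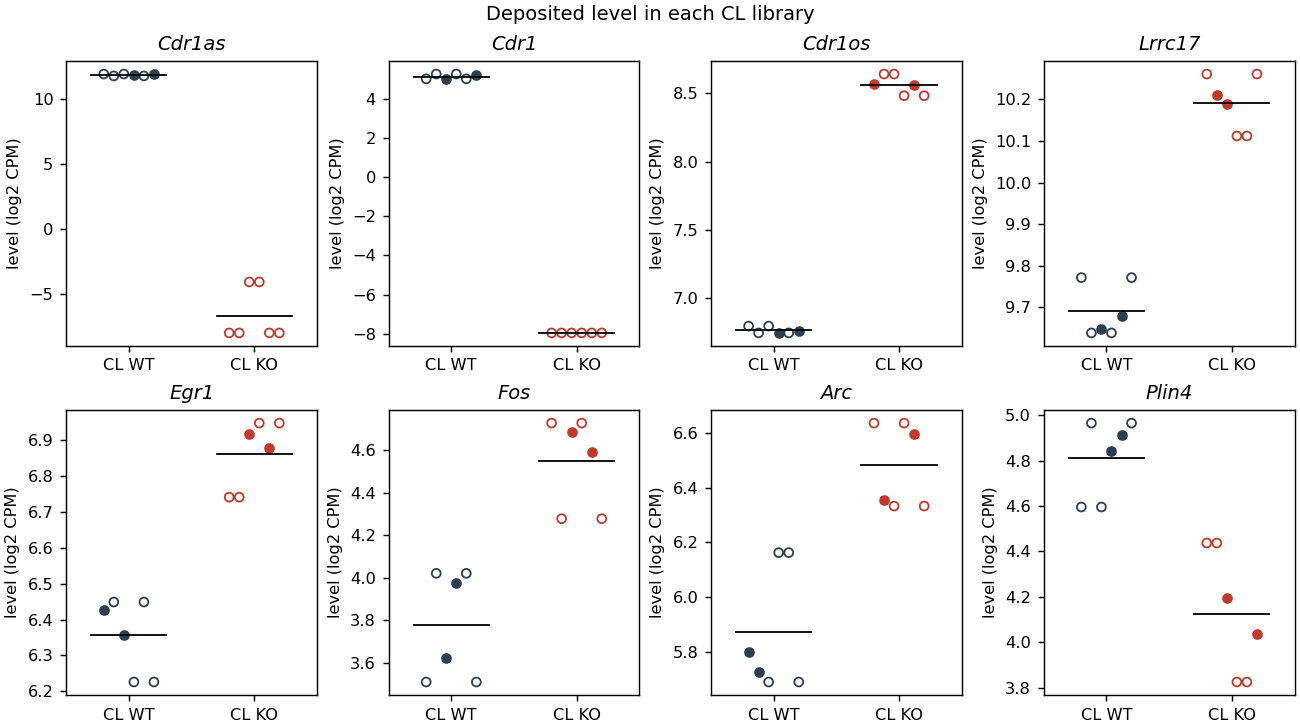
Deposited level (log2 CPM) of 8 genes in each of the 6 CL WT and 6 CL KO libraries. Open points are values drawn in to a quartile of the group, filled points are values as measured, and the bar is the mean of the 4 recoverable values. Cdr1as and Cdr1 sit at or near the lowest value of the table in KO, while Cdr1os, Lrrc17, Egr1, Fos and Arc lie higher and Plin4 lower in KO. Each panel has its own scale.

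The remaining call was Lrrc17, which encodes a secreted protein with leucine-rich repeats known as a restraint on osteoclast formation. It had a second lowest value of 10.09, a median of 10.20 and a second highest value of 10.28 log2 CPM in KO, against 9.63, 9.66 and 9.80 in WT. It rose 1.41-fold, a log2 fold change of 0.50 (SE 0.06), with an adjusted p = 0.0129 by the limma-moderated test and no overlap of the recoverable values. The size of this difference was steady when single libraries were left out (0.47 to 0.54), but the call was not. The adjusted p ran from 0.0071 to 0.0755, and Lrrc17 was no longer called without KO replicate 2, KO replicate 3, or WT replicate 2, 3, 4 or 5. Its neighbours on chromosome 5 lay mostly on the other side of 0. The list of that stretch had 9 members tested, Lrrc17 included, of which 7 were lower in KO (median -0.06), among them Psmc2 (-0.14, SE 0.07) and Napepld (-0.18, SE 0.11). In PI, Lrrc17 was higher in KO by 0.11 (SE 0.14), and the difference between PI and CL was -0.39 (SE 0.17, adjusted p = 0.992 by the limma-moderated test).

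Beyond these genes, differences were small. The quartiles of all log2 fold changes were -0.08 and 0.08, and the 5th and 95th percentiles were -0.26 and 0.30. The median SE of a gene was 0.11. An unadjusted p under 0.05 was found for 820 genes (5.73%), 453 higher (3.16%) and 367 lower (2.56%). Of all genes 49.2% had a fold change above 0, and the median was -0.002. These shares are the background for every list below. The recoverable KO values all lay above those of WT in 4.35% of genes and all below in 4.32%.

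**Figure D2:**
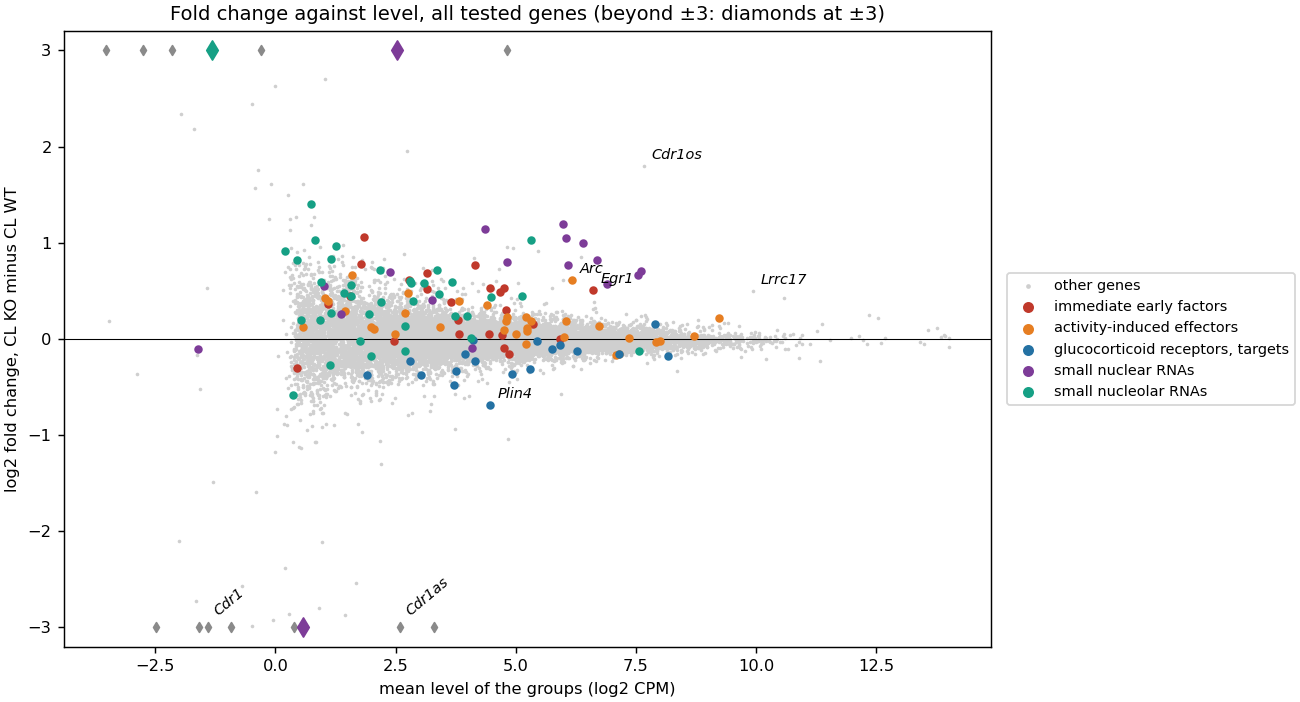
Log2 fold change (CL KO minus CL WT) against the mean level of the groups (log2 CPM) for all 14323 genes, with 5 gene groups coloured. Genes beyond ±3 are drawn as diamonds at ±3, Cdr1as and Cdr1 among them. Most immediate early factors, small nuclear RNAs and small nucleolar RNAs lie above 0, and the glucocorticoid list lies below 0 except for 1 member.

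Transcription factors of the immediate early class were mostly higher in KO. Members of this list, like those of the effector, glucocorticoid and marker lists below, were chosen with earlier results of these data known. The counts are therefore a description and not independent support. Of 26 listed, 24 were tested (Fosl1 and Atf3 were not), 19 were higher, and the median log2 fold change was 0.38, against 49.2% higher and a median of -0.002 over all genes. None was called, with a smallest adjusted p = 0.197 by the limma-moderated test. An unadjusted p under 0.05 was found in 13 of the 24, all higher in KO, against 3.16% of all genes. In 11 of the 24 the recoverable KO values all lay above those of WT, against 4.35% of all genes. Without KO replicate 6 the same counts were 18 higher and 13 with an unadjusted p under 0.05, and the median was 0.36.

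Egr1, a zinc finger factor of the early response, had the smallest p of the list. Its KO values had a second lowest of 6.70, a median of 6.90 and a second highest of 6.96 log2 CPM, against 6.18, 6.39 and 6.46 in WT. The difference was 0.51 (SE 0.09, adjusted p = 0.197 by the limma-moderated test), and the recoverable values did not overlap. It passed the threshold (adjusted p = 0.0474) when KO replicate 1 was left out, but with no other single library left out.

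Fos, the founding member of the AP-1 family, had a KO median of 4.64 log2 CPM (second lowest 4.17, second highest 4.74) and a WT median of 3.80 (3.47 and 4.04). The difference was 0.77 (SE 0.19, adjusted p = 0.490), and again the recoverable values did not overlap. Its partners Fosb (0.61, SE 0.20) and Junb (0.53, SE 0.16) were higher by similar amounts, Fosl2 by 0.30 (SE 0.10). Jun lay on the other side of 0, at -0.16 (SE 0.08).

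Among the Egr factors the fold was largest for Egr2, which had a KO median of 2.40 and a WT median of 1.38 log2 CPM and a difference of 1.06 (SE 0.28, adjusted p = 0.596). Egr4 was higher by 0.69 (SE 0.17, adjusted p = 0.488), with a KO median of 3.56 and a WT median of 2.82. Egr3, whose recoverable values overlapped, was higher by 0.20 (SE 0.16). The orphan nuclear receptors Nr4a1 (0.53, SE 0.18) and Nr4a3 (0.49, SE 0.19), the neuron-specific calcium-responsive factor Npas4 (0.52, SE 0.18) and the antiproliferative regulator Btg2 (0.39, SE 0.15) had unadjusted p values under 0.05. So did Klf2 (0.78, SE 0.24) and Klf4 (0.45, SE 0.20), Krüppel-like factors that are also prominent in endothelium. Maff, the lowest of the list at -0.30 (SE 0.48), was measured at under 1 log2 CPM and with a wide error.

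Effectors that activity induces, such as synaptic proteins, kinases and secreted factors, were mostly higher in KO. Of 33 tested, 28 were higher in KO, with a median of 0.13. Unadjusted p was under 0.05 in 8, all higher, and none was called (smallest adjusted p = 0.564 by the limma-moderated test). Without KO replicate 6, 26 were higher, 10 had an unadjusted p under 0.05 and the median was 0.16. Arc, an immediate early gene for a synaptic protein that regulates AMPA receptor endocytosis, had KO values with a second lowest of 6.33, a median of 6.48 and a second highest of 6.65 log2 CPM, against 5.68, 5.76 and 6.28 in WT, and a difference of 0.61 (SE 0.16). The recoverable values came close but did not overlap. Arc passed the threshold (adjusted p = 0.0358) without WT replicate 4, but with no other single library left out.

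The salt-inducible kinase Sik1 was higher by 0.48 (SE 0.14), the scaffold Homer1 by 0.21 (SE 0.07), the pentraxin Nptx2 by 0.39 (SE 0.15) and the nuclear protein Midn by 0.35 (SE 0.11). Ccn1, a matricellular protein, was higher by 0.67 (SE 0.24), Lonrf1 by 0.23 (SE 0.08) and Arl5b by 0.19 (SE 0.07). The neurotrophin Bdnf differed by 0.19 (SE 0.19), no more than its error, and Ptgs2, the inducible cyclooxygenase, by 0.19 (SE 0.14), within 2 SE of 0. Scg2, a precursor of secreted neuropeptides, was at -0.17 (SE 0.13) and Sgk1 at -0.15 (SE 0.08).

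Genes of the negative feedback on MAP kinase, which the same stimuli induce, were higher in 12 of 17 tested (median 0.12). Unadjusted p was under 0.05 in 5 that were higher: the phosphatases Dusp1 (0.30, SE 0.12) and Dusp6 (0.26, SE 0.11) and the Ras pathway inhibitors Spry4 (0.50, SE 0.20), Spred2 (0.18, SE 0.08) and Spred3 (0.24, SE 0.10). It was under 0.05 in 1 that was lower, Errfi1 (-0.31, SE 0.09), an inhibitor of the EGF receptor that is also in the glucocorticoid list. The count with an unadjusted p under 0.05 and higher rests on single libraries: it was 2 without KO replicate 6, 0 without WT replicate 3 or 6 and 7 without WT replicate 2. The median ran from 0.04 without WT replicate 3 to 0.21 without WT replicate 2.

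**Figure D3:**
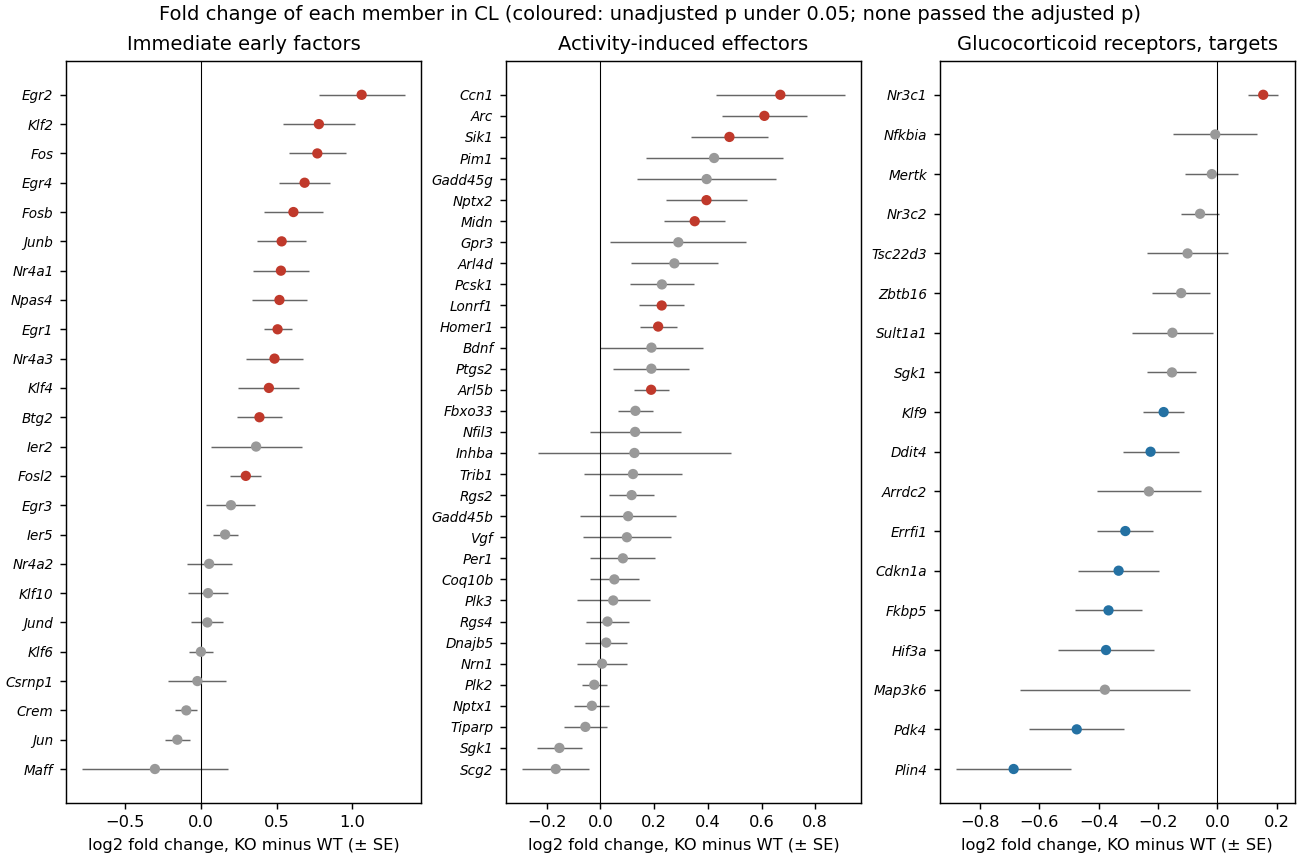
Log2 fold change (CL KO minus CL WT) of each tested member of the immediate early factors, the activity-induced effectors and the glucocorticoid list, with bars of 1 SE. Coloured points have an unadjusted p under 0.05, red higher and blue lower in KO. The early factors are spread to the right, up to Egr2 at 1.06, and all of the glucocorticoid list except Nr3c1 lie left of 0.

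Since most members of both activity lists lay on the same side, their promoters were searched for binding motifs of the factors that activity engages. Promoters are RefSeq windows from 250 bases before to 50 after a start (GRCm38.p6). The cAMP response element TGACGTCA and the serum response element (the CArG box) both read the same on each strand. The first was in 2 of 19 early factors with a promoter and 5 of 24 effectors, against 3.63% of tested genes with a promoter and 2.03% of all genes with one. The CArG box was in 1 of 19 early factors and 0 of 24 effectors, against 1.58% of tested genes and 1.81% of all. Shown because their genes had an unadjusted p under 0.05 and a match in the promoter are the stretches upstream of Egr2 (chr10:67537757-67537846, forward strand), Btg2 (chr1:134079274-134079361, reverse strand), Arl5b (chr2:15055159-15055246, forward strand) and, from the opposite side, Errfi1 (chr4:150854979-150855066, forward strand). Capitals mark the motif.
Egr2: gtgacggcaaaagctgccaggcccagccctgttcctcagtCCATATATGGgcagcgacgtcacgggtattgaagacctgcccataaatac
Btg2: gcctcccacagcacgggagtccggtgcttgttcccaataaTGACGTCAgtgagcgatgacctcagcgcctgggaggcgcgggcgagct
Arl5b: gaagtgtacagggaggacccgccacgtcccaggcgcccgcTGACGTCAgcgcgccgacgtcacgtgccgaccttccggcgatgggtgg
Errfi1: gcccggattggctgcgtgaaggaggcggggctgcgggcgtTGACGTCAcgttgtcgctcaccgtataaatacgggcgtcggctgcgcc
A match is a description of these letters and not a bound site. The other early factors and effectors with the cAMP response element, Maff, Scg2, Pcsk1, Plk2 and Arl4d, had no unadjusted p under 0.05. Of these, Maff and Scg2 lay below 0. Errfi1 was lower in KO with the same motif that stands in Btg2 and Arl5b, which were higher.

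Glucocorticoid receptors and their known targets lay on the other side. Of 18 tested, 17 were lower in KO, with a median of -0.20. Unadjusted p was under 0.05 in 8 that were lower and 1 that was higher, and none was called (smallest adjusted p = 0.600 by the limma-moderated test). Without KO replicate 6, 16 were lower, 9 of them with an unadjusted p under 0.05, and the median was -0.23. Without KO replicate 5 the count with an unadjusted p under 0.05 and lower was 4 and the median -0.13, and without KO replicate 4 the count was also 4. In 5 of the 18 the recoverable KO values all lay below those of WT, against 4.32% of all genes.

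Plin4, a coat protein of lipid droplets, had KO values with a second lowest of 3.76, a median of 4.12 and a second highest of 4.52 log2 CPM, against 4.51, 4.88 and 4.98 in WT. Its difference was -0.69 (SE 0.19), with the recoverable values just touching. Fkbp5, a co-chaperone that dampens the receptor, had a KO median of 4.71 (second lowest 4.54, second highest 4.95) and a WT median of 5.10 (4.98 and 5.20), a difference of -0.37 (SE 0.11) with no overlap of the recoverable values. Errfi1 has been given above. Of the other members with an unadjusted p under 0.05, named after their values were seen, Pdk4, a brake on pyruvate use, was at -0.47 (SE 0.16), the hypoxia-pathway factor Hif3a at -0.38 (SE 0.16), the cell cycle inhibitor Cdkn1a at -0.33 (SE 0.14), the mTOR inhibitor Ddit4 at -0.22 (SE 0.09) and Klf9 at -0.18 (SE 0.07). The member on the other side was the receptor gene itself, Nr3c1, at 0.15 (SE 0.05), with a KO median of 7.98 and a WT median of 7.81 log2 CPM.

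The palindrome bound by this receptor, searched as GNACANNNTGTNC, was in 2 of the 16 list members that have a promoter in the RefSeq table, against 0.397% of tested genes. Neither of the 2, Sgk1 and Map3k6 (named here for the match), had an unadjusted p under 0.05. Sgk1 is also in the effector list. Core clock genes, which shift with the time of day at which tissue is taken, were higher in 9 of 19 with a median of -0.02. The list holds repressors and activators of the clock together. Its count and median therefore cannot show whether the groups differed in time of day, which was not tested. The 1 member with an unadjusted p under 0.05 was Per2, a repressor of the clock, at 0.26 (SE 0.08). The activator Arntl was at -0.17 (SE 0.09), with neither called. Mt2, a metallothionein, is in neither the glucocorticoid nor the clock list. It was at -0.44 (SE 0.13) and is counted with the metallothioneins and NRF2 targets below (median -0.03 over 12).

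ciRS-7 is known for its many sites for miR-7, so the genes with sites for that microRNA were described next. The mature forms are shown because their seed defines the sites searched. Both come from RefSeq (GRCm38.p6), with bases 2 to 8 in capitals, and miR-7a is made from 2 loci with the same mature sequence.
miR-7a-5p: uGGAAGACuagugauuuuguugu
miR-7b-5p: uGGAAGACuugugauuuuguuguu
The seed is shared, so both forms have the same sites. A match to it in a 3′ untranslated region was GTCTTCC or TCTTCCA (7 bases), or GTCTTCCA (8 bases), on the messenger strand.

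Fold changes of genes with such sites were spread like those of genes without. Of 12541 genes with an annotated 3′ untranslated region, 3712 had at least 1 match, and 48.2% of them were higher in KO, with a median log2 fold change of -0.005. The 8829 without a match had 48.3% higher and a median of -0.004. The 599 genes with the 8-base match had a median of -0.01 and the 996 with 2 or more matches a median of -0.001. An unadjusted p under 0.05 was found in 2.72% (higher) and 2.64% (lower) of genes with a match, and in 2.68% and 2.63% of those without. In each of 4 bins of untranslated region length, the medians with and without a match both lay between -0.01 and 0.01.

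Targets of miR-7 named in the literature were higher in 15 of 22 tested, with a median of 0.04, and 18 of the 22 held a match. Unadjusted p was under 0.05 in 2, Klf4, which is also an early factor, and Pik3cd, the delta catalytic subunit of phosphoinositide 3-kinase (0.28, SE 0.11). Irs2, an adaptor of insulin signalling, differed by 0.10 (SE 0.11), and Keap1, the repressor of NRF2, was at -0.17 (SE 0.09). Among the early factors 11 of 24 held a match (45.8%), against 29.6% of all genes with an untranslated region. The 11 had a median log2 fold change of 0.45 (from -0.30 for Maff to 0.77 for Fos), 8 of them higher, and the 13 without a match a median of 0.36 (from -0.16 for Jun to 1.06 for Egr2), 11 of them higher. The 8-base sites of Pik3cd, Nr4a3 and Egr3 are shown with the match in capitals (GRCm38), and other members of these lists with such a site are not. Mobp, in neither list, is added for its p.
Pik3cd, chr4:149650327-149650348, reverse strand: ggatcgaacccctaGTCTTCCA
Nr4a3, chr4:48086068-48086089, forward strand: gccagtgttcttctGTCTTCCA
Egr3, chr14:70080602-70080623, forward strand: gaccggaggagatgGTCTTCCA
Mobp, chr9:120175935-120175956, forward strand: cagactccatcattGTCTTCCA
Pik3cd and Nr4a3 lay above 0, Mobp below at -0.33 (SE 0.08), and Egr3 within 2 SE of 0. Mobp belongs to the oligodendrocyte markers, of which all 12 were lower in KO. These genes are examples, and their directions say nothing about sites in general. Mobp, a myelin protein, had the smallest p among all genes with an 8-base match (adjusted p = 0.461). Others with a small p were the riboflavin transporter Slc52a2 (0.75, SE 0.19), the zinc finger gene Zkscan8 (-0.25, SE 0.06) and the ubiquitin-activating enzyme Uba6 (0.25, SE 0.07), none of them called.

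The other 3 members of the ciRS-7 network lay within 2 SE of 0. Cyrano (Oip5os1) had a median of 10.04 log2 CPM in KO and 10.03 in WT and differed by 0.03 (SE 0.04). Hnrnpk, whose transcript carries a miR-7 precursor, had a median of 8.11 in KO and 8.17 in WT and differed by -0.07 (SE 0.06). Chpf2, the host gene of miR-671, which directs the cleavage of ciRS-7, differed by -0.03 (SE 0.10). Mature microRNAs are not measured by these libraries.

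Small structured RNAs, described after they had been seen among the smallest p values, were mostly higher in KO. Of 18 small nuclear RNAs, which belong mostly to the splicing machinery, 15 were higher in KO, with a median log2 fold change of 0.70. Unadjusted p was under 0.05 in 12, all higher. Of 37 small nucleolar RNAs, guides of RNA modification, 31 were higher (median 0.44) and 15 had an unadjusted p under 0.05, all higher. All 22 mitochondrial tRNAs were higher (median 0.51), 15 with an unadjusted p under 0.05. These counts rest on single libraries: that of the tRNAs was 8 without KO replicate 6, 7 without KO replicate 4 or WT replicate 2 and 20 without KO replicate 1 or 3, and that of the small nucleolar RNAs was 9 without WT replicate 6. Protein-coding genes had a median of -0.004 over 12592.

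The smallest p after the 4 calls belonged to Snord3b-ps1, a copy of the U3 family. It had a KO median of 5.89 log2 CPM (second lowest 5.83, second highest 6.06) and a WT median of 5.05 (4.65 and 5.24). The difference was 0.92 (SE 0.14, adjusted p = 0.0601 by the limma-moderated test), and it was called without WT replicate 1, 2, 4 or 6. Gm25939 (0.82, SE 0.13), Gm24924 (1.05, SE 0.17) and Gm22513 (0.77, SE 0.15), all annotated as small nuclear RNAs, followed, with the small nucleolar RNAs ENSMUSG00000065629 (1.02, SE 0.20) and Snora74a (0.44, SE 0.09) and the mitochondrial tRNA mt-Tn (0.85, SE 0.17). Many of these genes have near-identical copies, among which the counting could split reads, so single members are uncertain.

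The libraries did not share this shift evenly. As a mean deviation from the 12 libraries, the small nucleolar RNAs lay between 0.09 and 0.43 in KO and between -0.59 and 0.02 in WT. The small nuclear RNAs lay between -0.04 and 1.20 in KO and between -0.83 and 0.20 in WT, with KO replicate 1 highest and WT replicate 4 within the KO range. Without KO replicate 1 the median of the small nuclear RNAs was 0.57, and without KO replicate 6 that of the mitochondrial tRNAs was 0.36. Of 13 abundant nuclear noncoding RNAs tested, most of them long, 7 were higher, with a median of 0.01.

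**Figure D4:**
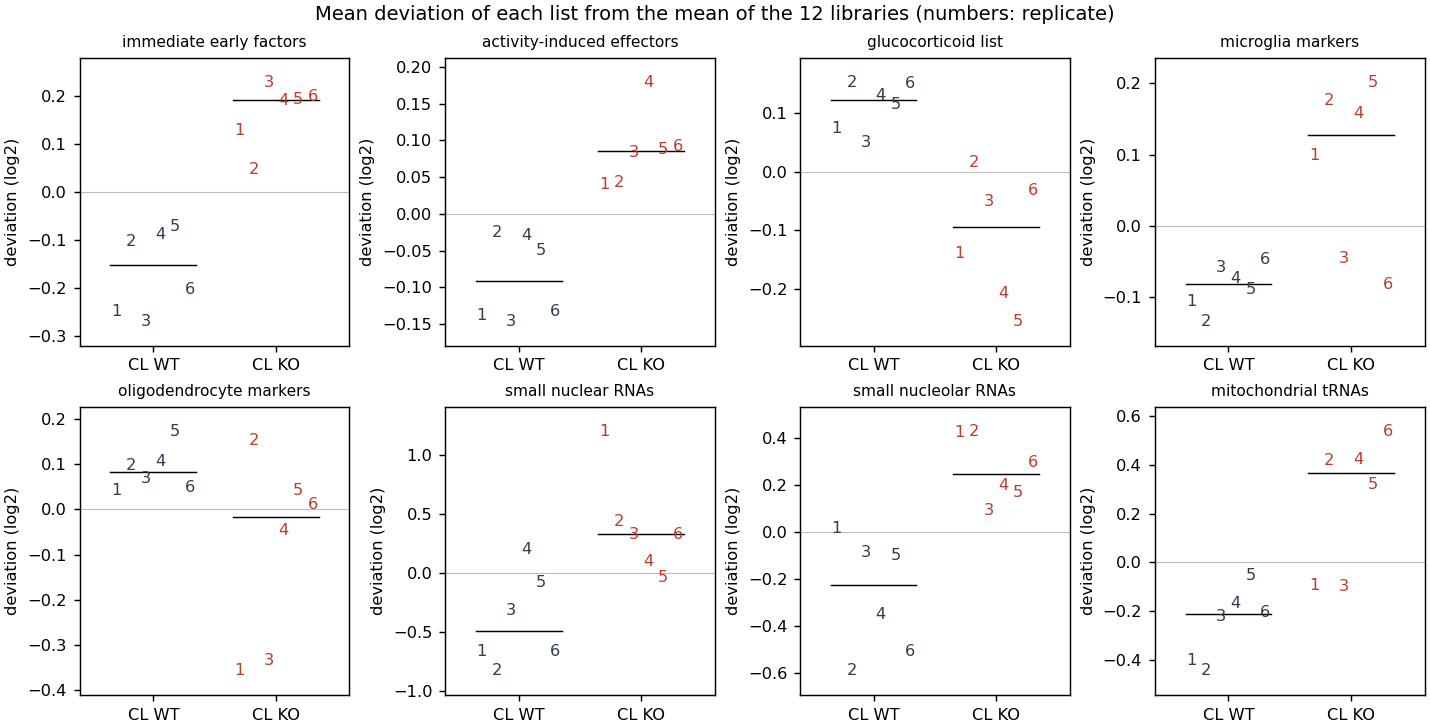
Mean deviation (log2) of 8 lists from the mean of the 12 libraries, with each number giving the replicate and each bar the group median. Values at the ends of a group are as deposited, drawn in to its quartiles, which widens the gap between groups. The 6 KO libraries lie above all 6 WT libraries for the early factors, the effectors and the small nucleolar RNAs and below them for the glucocorticoid list. In the other 4 panels the groups overlap.

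The same view by library was taken for the activity and stress lists. The early factors lay between 0.05 and 0.23 in the 6 KO libraries and between -0.27 and -0.07 in the 6 WT libraries. The effectors lay between 0.04 and 0.18 in KO and between -0.15 and -0.02 in WT. The glucocorticoid list lay between -0.26 and 0.02 in KO and between 0.05 and 0.15 in WT. The groups did not overlap in these 3 lists, but in each library 53.1% to 89.5% of genes carry a group quartile in place of the library's own value, which by itself narrows each group. The means are a description of the deposited values only.

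The tissue was checked against its markers. Neuron markers summed to 9552 to 9888 CPM in KO and 9595 to 10145 CPM in WT. The 14 neuron markers had a median log2 fold change of 0.01, the 17 excitatory layer markers 0.04 and the 14 interneuron markers -0.003. Astrocyte markers summed to 8078 to 8563 CPM in KO and 8033 to 8426 CPM in WT, with a median of -0.02 over 14. Sox9 (0.34, SE 0.11) and Gja1 (0.14, SE 0.06) had unadjusted p values under 0.05 in that list. Of 10 choroid plexus markers 2 were tested, and Ttr was not among the tested genes. Of 13 neutrophil and monocyte markers 2 were tested, and S100a8, S100a9 and Ly6g were not. The 2 were both higher (median 0.34). Of 4 erythrocyte transcripts tested 3 were higher, with a median of 0.65 that ran from 0.06 without KO replicate 4 to 1.25 without KO replicate 2. None in either list had an unadjusted p under 0.05.

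Microglia markers were on the higher side. Of 20, 18 were higher in KO (median 0.16), and the sum was 286 to 322 CPM in KO against 269 to 289 CPM in WT, with 1 member, Itgam (0.30, SE 0.12), at an unadjusted p under 0.05 (4 without KO replicate 6, 0 without KO replicate 2 or 5 or WT replicate 1). Fcrls was at 0.42 (SE 0.19) and Tmem119 at 0.38 (SE 0.20). By library, KO replicate 6 lay within the WT range and KO replicate 3 just above it. The median was 0.24 without KO replicate 6 and 0.11 without WT replicate 2. Meningeal fibroblast markers were higher in 10 of 10 (median 0.31), with Col1a2 (0.58, SE 0.17) and Col1a1 (0.96, SE 0.39), fibrillar collagens, at an unadjusted p under 0.05. Their median was 0.20 without WT replicate 3 and 0.44 without KO replicate 6. Endothelial markers were higher in 11 of 14 (median 0.13), with Vwf at 0.56 (SE 0.22). That median ranged from 0.001 without WT replicate 2 to 0.24 without WT replicate 6. Pericyte and smooth muscle markers were lower in 7 of 9 (median -0.04), from -0.13 without WT replicate 2 to 0.05 without WT replicate 4. Klf2 and Klf4, early factors also found in vessels, were higher together with the endothelial and meningeal lists, and the part of vascular and meningeal cells in their values was not tested.

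Oligodendrocyte markers were on the lower side. All 12 were lower in KO (median -0.16), and the sum was 1843 to 2522 CPM in KO against 2318 to 2532 CPM in WT. Mobp (-0.33, SE 0.08, adjusted p = 0.461) was the 1 member with an unadjusted p under 0.05, and Mag (-0.26, SE 0.17) and Aspa (-0.30, SE 0.20) followed. The spread of KO was wide: KO replicates 1 and 3 were lowest and KO replicates 2 and 5 were within the WT range. The median was -0.06 without KO replicate 1 and -0.27 without KO replicate 2, where 5 had an unadjusted p under 0.05. Precursor markers were lower in 6 of 10 (median -0.09, and -0.01 without KO replicate 5), with Gpr17 higher by 0.40 (SE 0.17).
Of 8 striatum markers tested, 6 were lower (median -0.20), Pdyn among them (-0.28, SE 0.12). By library, WT replicates 1 and 3 both lay at 0.26, against -0.01 for the highest KO library. The same WT libraries had the lowest mean deviations for the early factors (-0.25 and -0.27) and the effectors (-0.14 and -0.15). The striatum median was -0.08 without WT replicate 1 and -0.25 without WT replicate 4. Of 8 hippocampus markers tested, 5 were higher (median 0.06). How far the dissected region sets these values was not tested.

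**Figure D5:**
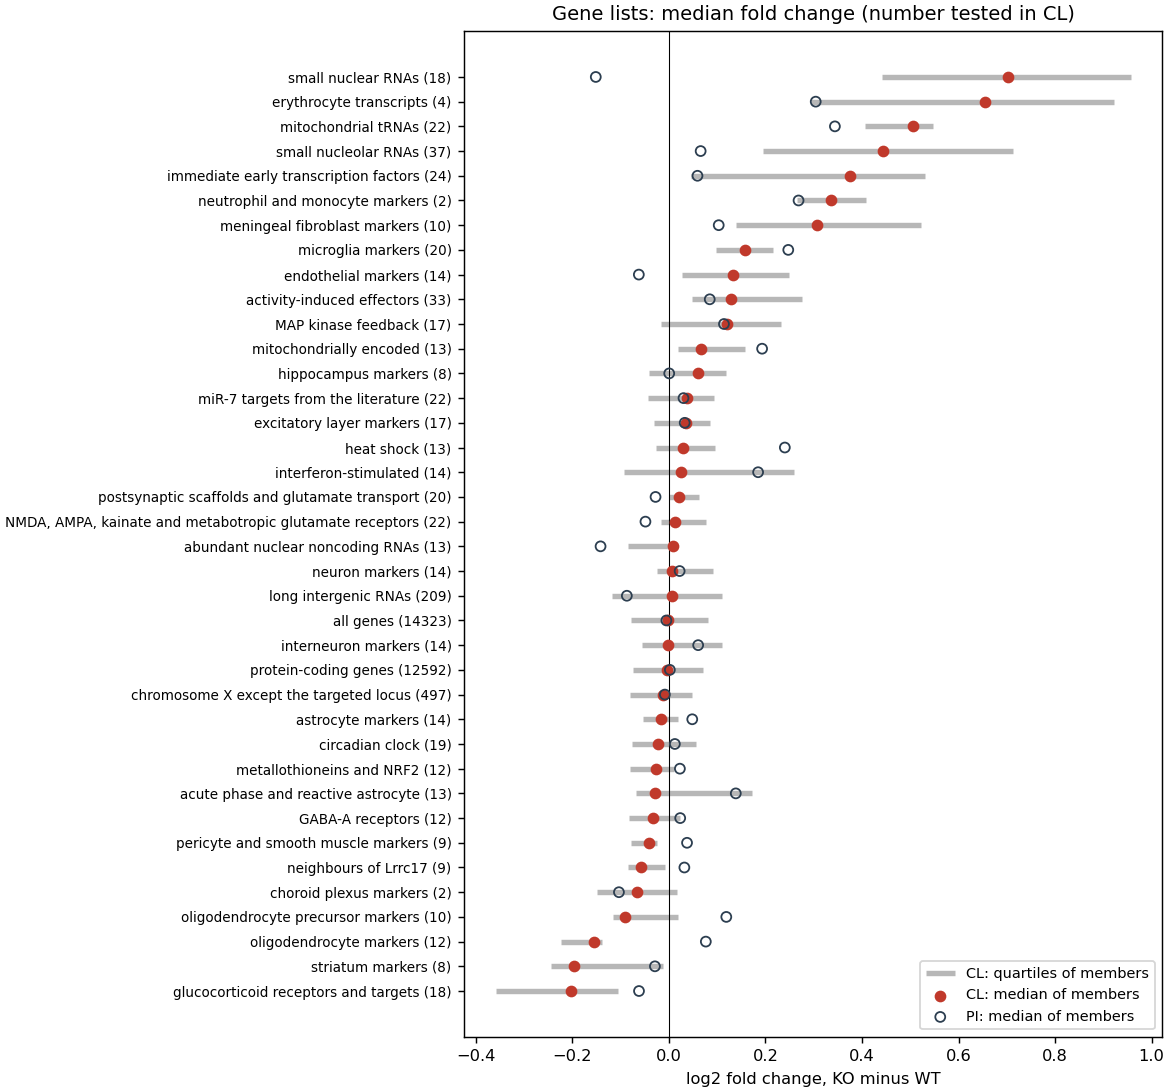
Median log2 fold change (KO minus WT) of the members of each list in CL (filled, with the quartiles of the members as bars) and in PI (open), with the number tested in CL. Small RNAs, early factors and meningeal fibroblast markers lie to the right of all genes in CL, and the glucocorticoid, striatum and oligodendrocyte lists to the left. Heat shock, synapse and neuron lists lie near 0 in CL.

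Injury and synapse lists were near the background. Heat shock genes were higher in 8 of 13 (median 0.03), with the co-chaperone Dnajb1 at 0.21 (SE 0.08). Acute phase and reactive astrocyte genes were higher in 6 of 13 (median -0.03), Gfap at -0.18 (SE 0.12) among them. Interferon-stimulated genes were higher in 7 of 14 (median 0.03), with the signal transducer Irf9 at 0.39 (SE 0.16) and Ifit3 at -0.29 (SE 0.16). Metallothioneins and NRF2 targets were higher in 4 of 12 (median -0.03), where the cystine transporter Slc7a11 at 0.21 (SE 0.07) stood opposite Mt2. Glutamate receptors were higher in 14 of 22 (median 0.01), postsynaptic scaffolds and glutamate transporters in 15 of 20 (median 0.02), with Shank1 at 0.23 (SE 0.08), and GABA-A receptor subunits in 4 of 12 (median -0.03). Transcripts encoded by mitochondria were higher in 10 of 13 (median 0.07), mt-Nd5 by 0.25 (SE 0.10).

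The genes that follow lie outside these lists and come from the 10 uncalled genes with the smallest p in each direction. On the higher side were Gm14636 (0.43, SE 0.09), a noncoding transcript of chromosome X, and Car10 (0.28, SE 0.06), a carbonic anhydrase-related protein of neurons. On the lower side were the deubiquitinase-family gene Usp54 (-0.31, SE 0.06), which had a KO median of 6.21 and a WT median of 6.52 log2 CPM with no overlap of the recoverable values, ENSMUSG00000089945 (Pakap in the annotation, -1.04, SE 0.20) and Gm20390 (-0.62, SE 0.13). Also lower were Hibadh, an enzyme of valine breakdown (-0.35, SE 0.07), the stress-induced Trp53inp1 (-0.35, SE 0.08), the mitochondrial import chaperone Timm8a1 (-0.59, SE 0.14), the Wnt pathway regulator Daam2 (-0.34, SE 0.08), the lipase inhibitor Angptl4 (-0.88, SE 0.22) and the glycosyltransferase B3galt6 (-0.48, SE 0.12). Adjusted p by the limma-moderated test was from 0.197 to 0.538 in all of these.

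The effect of genotype in CL was set against that in PI, the libraries of the same animals. The difference was tested for 14093 genes listed in both tables, and 0 were called (0% of genes, smallest adjusted p = 0.992 by the limma-moderated test), while 637 (4.52%) had an unadjusted p under 0.05. Early factors were higher in 15 of 23 in PI (median 0.06) against the median of 0.38 in CL, and in 19 of 23 the PI effect was below that in CL, against 50.2% of all genes. Over all genes 48.5% were higher in PI KO. An unadjusted p under 0.05 for the difference was found in 2 of the 23, Klf2 and Fosl2. Fos was higher by 0.63 and Arc by 0.80 in PI, and Egr2 was not in the PI table. The effectors had a median of 0.08 in PI, and 0 of 33 had an unadjusted p under 0.05 for the difference. The glucocorticoid list had 5 of 18 higher and a median of -0.06 in PI. Oligodendrocyte markers were higher in 10 of 12 (median 0.08) in PI and lower in all 12 in CL, and microglia markers were higher in 18 of 20 in both. Small nuclear RNAs had a median of -0.15 in PI, and 10 of 18 had an unadjusted p under 0.05 for the difference, against 4.52% of all genes. Small nucleolar RNAs had a median of 0.07 in PI, and 7 of 33 had an unadjusted p under 0.05 for the difference. Mitochondrial tRNAs were higher in 21 of 22 in PI (median 0.34), 8 of them with an unadjusted p under 0.05. For the difference, 0 of the 22 had an unadjusted p under 0.05. MAP kinase feedback genes were higher in 14 of 17 in PI (median 0.11), and 1 of 17 had an unadjusted p under 0.05 for the difference. Since an animal's CL and PI libraries were treated as independent in the test of the difference, the p values of that test are approximate. The small RNA classes were picked after their CL values had been seen, and the difference holds those same values. Their counts therefore cannot show whether the shift is particular to CL. The other lists were chosen with earlier results of these data known.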

How the data were processed

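The authors deposited log2 CPM per gene, 1 table for each pair of groups. Reads were placed on mm10, per the submitters' processing notes; the aligner, counter, use of strand and scaling are not given in the sources used here. Libraries were made with RiboCop depletion and the CORALL kit, per the labels' protocols. The 2 values inside the quartiles were used as deposited and the quartiles were solved for the next 2. Trimmed means were compared with Winsorized sums of squares, 6 residual degrees of freedom, limma 3.58.1 variance moderation with a trend (R 4.3.3) and Benjamini-Hochberg adjustment, two-sided. The method was tested on simulated data. Symbols were matched to GENCODE M21 (13961 by symbol, 59 by identifier, 194 by older symbol, 109 not matched). Named genes were every call, the 10 uncalled genes with the smallest p in each direction at 1 log2 CPM or more, the 3 members with the smallest p of each list, any member of the activity and ciRS-7 lists, and the 5 genes with an 8-base miR-7 match and the smallest p. Members and lists were chosen with earlier results of these data known. The small RNA classes, the chromosome X classes and the sets leaving out 1 library were added after seeing the data. Values of a few genes that these rules would name are not reported here.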

Additional observations from a re-analysis of the deposited data

Results flagged for a closer look

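Of 82 sets of 6 libraries tested for a single library apart from the rest (depth, share of values at an end of the group, and each list's mean deviation), 4 had one, and chance gives about 1 in 20. KO replicate 5 had 10.5 M reads, apart from the other 5. For the activity-induced effectors, KO replicate 4 had the highest mean deviation at 0.179, above the other KO libraries, and the list's median was 0.10 without it. For chromosome X genes outside the ciRS-7 locus, KO replicate 6 had the lowest mean deviation at -0.0560. For the neighbours of Lrrc17, WT replicate 3 had the highest mean deviation at 0.0372. The share of values at an end of the group in KO replicate 6 was not among the 4: its gap to the next library was 0.599 of the range in KO, under the critical value of 0.625.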

How the results depend on the processing

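The count of called genes was 4 with groups centred on the median gene (the same 4 genes), 4 with no trend in the prior variance (Gm42559 in place of Lrrc17), 4 at a level of at least 1 log2 CPM (3 higher and 1 lower, with Snord3b-ps1 called and Cdr1 below that level) and 5 on log2(CPM + 1), with Snord3b-ps1 added. Leaving out 1 library gave 3 to 7 calls, and Cdr1as, Cdr1 and Cdr1os were called in all 12 of these sets. Limma run on the values as deposited, whose ties lower the estimated spread, gave 2311 calls in CL and 1948 for the difference between PI and CL. With the replicate number as a block, the same fit gave 1868. Whether equal replicate numbers pair KO and WT samples could not be decided. Deviations of same-numbered libraries correlated at -0.133 to 0.134, and 3 of 6 KO libraries correlated best with their own number. Most of the values compared were group quartiles, which blurs any shared deviation. Lrrc17 was called in 11 of 18 alternatives, among them both limma fits on the deposited values, whose ties lower the estimated spread. The median of the immediate early factors was 0.28 to 0.43 without a library (lowest without KO replicate 3) and 0.31 to 0.39 in the other alternatives. Of the 98 genes given with an alternative here, 1 changed sign, Chpf2, which ran from -0.082 without KO replicate 5 to 0.022 without KO replicate 2 and was above 0 in 5 of the 12 sets (without KO replicate 2, 3 or 4 or WT replicate 1 or 4). Of all 209 genes that the rule names, 22 changed sign when 1 library was left out, each with p of 0.561 or more in the full set. Of 39 lists, 26 kept the sign of their median in every alternative, the early factor, effector, glucocorticoid, oligodendrocyte, microglia and small RNA lists among them. Since 2 of 6 values at the ends of each group cannot be recovered, the test has 6 residual degrees of freedom. The variance moderation adds prior degrees of freedom to these, and the median SE was 0.11. Depth of 5.99 to 10.5 M reads limits genes near 0 log2 CPM.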
